A study of Mus musculus with 144 samples.

Results

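The 10 genes described here build or anchor the cytoskeleton and were followed in cultured mouse hepatocytes: the keratins Krt8, Krt18, Krt7 and Krt23, the mesenchymal intermediate filament gene Vim, the actins Acta2 and Actb, the tubulin Tubb6 and the cadherins Cdh1 and Cdh2. They were chosen by gene symbol as genes of epithelial or mesenchymal cell shape, and 10 of 10 were found among the 55359 genes counted in each library. Hepatocytes came from male mice of 28 days, labelled either wild-type (WT, strain C57BL/6NCrl) or Pkm ΔDRE, the latter carrying a whole-body deletion, made by genome editing, of the dioxin response element in an intron of the pyruvate kinase gene Pkm. All cells were plated on type I collagen in medium holding dexamethasone, insulin, transferrin and selenium, so these additions are shared by every group. Cells then received DMSO vehicle or 10 nM TCDD (2,3,7,8-tetrachlorodibenzo-p-dioxin, a ligand of the aryl hydrocarbon receptor, AHR) and were harvested at 9 times from 2 h to 120 h. Each of the 36 combinations of label, treatment and hour had 4 RNA-seq libraries, called replicates 1 to 4 here as a name only, with 13588848 to 30719161 counts on genes (median 18011825). The labels do not say whether the 4 libraries of a group came from separate animals or cultures, so each p-value measures only the spread between these libraries.

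Hepatocytes are epithelial cells whose intermediate filaments pair the type II keratin KRT8 with the type I keratin KRT18, whereas cells of the bile duct add KRT7 and KRT19. Vimentin filaments and smooth muscle alpha-actin, the product of Acta2, mark fibroblasts, activated stellate cells and smooth muscle, and E-cadherin (Cdh1) joins epithelial cells at adherens junctions where N-cadherin (Cdh2) also occurs in hepatocytes. Plated hepatocytes are known to flatten and lose liver functions with time, and the exchange of epithelial for mesenchymal filaments and cadherins is the textbook description of epithelial-mesenchymal transition. Liganded AHR binds DNA with its partner ARNT at dioxin response elements, whose core is GCGTG.

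The letters just before the start of 4 of these genes are shown because TCDD acts through that core and because the keratin pair, Krt23 and Vim were among the genes that differed with TCDD. Each sequence is the 250 bases before the RefSeq start on the gene's own strand (GRCm38.p6, an earlier mouse build than the GRCm39 used for counting), with GCGTG on either strand and TATAAA in capitals. RefSeq promoter entries matched 6 of the 10 genes.
Krt8 promoter, chr15:102004343-102004592, minus strand: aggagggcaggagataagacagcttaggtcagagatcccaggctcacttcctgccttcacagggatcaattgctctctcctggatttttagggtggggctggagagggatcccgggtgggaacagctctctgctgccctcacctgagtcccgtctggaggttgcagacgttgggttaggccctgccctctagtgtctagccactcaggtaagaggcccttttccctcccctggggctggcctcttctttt
Krt18 promoter, chr15:102027966-102028215, plus strand: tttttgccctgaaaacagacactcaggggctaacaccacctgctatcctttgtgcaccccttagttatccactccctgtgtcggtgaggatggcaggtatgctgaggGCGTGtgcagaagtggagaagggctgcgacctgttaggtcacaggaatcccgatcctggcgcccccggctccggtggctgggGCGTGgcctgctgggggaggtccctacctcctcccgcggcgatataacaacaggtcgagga
Krt23 promoter, chr11:99493121-99493370, minus strand: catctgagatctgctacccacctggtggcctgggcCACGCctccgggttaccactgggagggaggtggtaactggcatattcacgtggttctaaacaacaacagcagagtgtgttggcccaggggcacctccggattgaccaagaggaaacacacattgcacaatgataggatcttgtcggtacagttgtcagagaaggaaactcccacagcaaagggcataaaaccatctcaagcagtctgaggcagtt
Vim promoter, chr2:13574061-13574310, plus strand: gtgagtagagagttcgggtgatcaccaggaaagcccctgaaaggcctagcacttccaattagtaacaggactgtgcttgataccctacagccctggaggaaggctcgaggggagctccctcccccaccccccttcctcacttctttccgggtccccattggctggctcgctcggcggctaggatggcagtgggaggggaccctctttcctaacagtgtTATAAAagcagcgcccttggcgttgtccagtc
Krt18 held GCGTG 2 times, the nearer at bases 61 to 57 before the start, and Krt23 held it 1 time on the opposite strand, at bases 215 to 211 before the start. The core was not found in the same window of Krt8, Krt7, Vim or Acta2. Of the 32851 promoters in the RefSeq table, 28.2% held GCGTG on either strand, so its presence is common. TATAAA was found 32 to 27 bases before the start of Vim, and 12.4% of all promoters held it on either strand.

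Some libraries stood apart from their labels. Over 13501 genes, 24 libraries were most like the other libraries of a neighbouring hour, 1 (Pkm ΔDRE, vehicle, 72 h, replicate 1) was most like 120 h, 2 were most like an hour 6 sampled times away, and all others were most like their own hour. Those 2 are called the mismatched libraries here. Replicate 4 of Pkm ΔDRE vehicle at 4 h was most like 96 h (r = 0.818, against -0.71 with its own hour), and replicate 4 of Pkm ΔDRE vehicle at 96 h was most like 4 h (r = 0.866, against -0.75). Both were kept under their labels, and values without them are given for the results at those hours, for culture time under that label and for the correlations. The AHR target Cyp1a1 was also far from its group in single WT libraries. It was at 3285 CPM (counts scaled to TMM-adjusted library sizes) in 1 vehicle library at 48 h (others at most 2.37) and 1717 in 1 at 96 h (others at most 114.1). In 1 TCDD library at 72 h it was at 29.2 (others at least 3386). Smaller gaps were seen in 1 vehicle library each at 12 h (17.3 CPM) and 24 h (53.5) and in 1 TCDD library each at 2 h (1.15) and 4 h (10.2). Pkm, counted over all of its isoforms, went against the genotype labels. At 24 h the 4 libraries labelled Pkm ΔDRE held 73.5 to 296 CPM with vehicle and 278 to 491 with TCDD, whereas those labelled WT held 35.4 to 191 and 41.7 to 132.9. The groups are therefore called by their labels throughout.

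Time in culture was the first comparison, within vehicle libraries. By 120 h, the mesenchymal genes Vim, Acta2 and Cdh2 and the duct keratin Krt7 had risen, and Krt8, Krt18, Actb, Tubb6 and Cdh1 had fallen, under both labels. A gene was called where edgeR's quasi-likelihood test gave a Benjamini-Hochberg adjusted p below 0.05 over all genes tested and the fold change was at least 1.5. On that rule 9 of 10 members were called under label WT, 4 higher and 5 lower, and 10 of 10 under label Pkm ΔDRE, 4 higher and 6 lower. The background was large: 57.9% of 15862 genes were called under label WT (33.4% higher and 24.5% lower), and 49.4% of 15968 under label Pkm ΔDRE (26.8% higher and 22.7% lower), with all-gene median log2 fold changes of 0.21 and 0.24. Without the mismatched libraries the count of members stayed at 10 and the background was 50.5%. Where hours are said below not to overlap, the share of all genes without overlap is not given. Bulk RNA cannot tell fewer cells of a type from less RNA per cell.

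**Figure D1:**
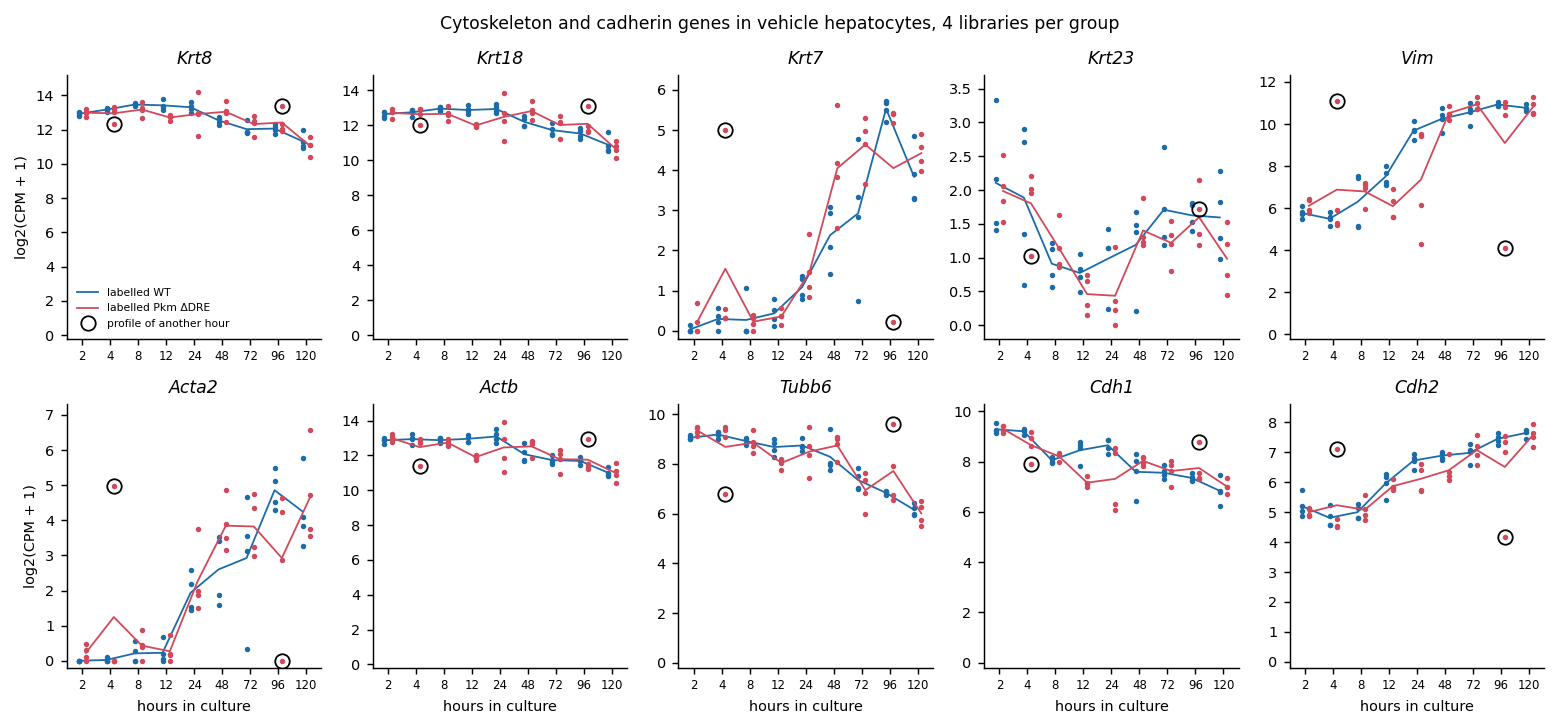
Level of each gene in every vehicle library (points, log2 of CPM + 1) against hours in culture, drawn at even spacing, with lines through the mean of the 4 libraries of a group, blue for label WT and red for label Pkm ΔDRE. Vim, Acta2, Krt7 and Cdh2 sit higher at 120 h than at 2 h in all libraries, Tubb6 and Cdh1 lower, and the circled mismatched libraries fall with the opposite end of the time course for most genes.

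Krt8 and Krt18 started as the most abundant members with Actb, and their group means under label WT were highest at 8 h, at 11293 CPM for Krt8 and 7870.4 for Krt18. From 2 h to 8 h the Krt8 estimate was 0.55 on the log2 scale (SE 0.21, edgeR adjusted p = 0.039), under the fold limit. In the 4 vehicle libraries labelled WT, Krt8 was at 7201, 7405, 8172 and 8261 CPM at 2 h, 10628 to 11790 at 8 h, and 1923, 2144, 2529 and 4105 at 120 h. Every 120 h library was below every 2 h library, and the fall was 1.71 on the log2 scale (SE 0.21, edgeR adjusted p = 3.4e-08). Krt18 was at 5523, 5955, 6962 and 6973 CPM at 2 h and at 1494, 1513, 1759.7 and 3087 at 120 h, again without overlap. It fell by 1.87 on the log2 scale (SE 0.22, edgeR adjusted p = 1e-08). Krt8 under label Pkm ΔDRE went from 6858 to 9528 CPM at 2 h to 1372 to 3069 at 120 h, and its fitted log2 fold change was -2.08 (SE 0.42). Krt18 went from 5222 to 7865 CPM to 1103 to 2195 there, with a log2 fold change of -2.23 (SE 0.44). The pair kept nearly equal levels per kilobase of transcript: the ratio of Krt8 to Krt18 lay between 0.753 and 1.30 in every library, with a median of 0.973. Krt8-ps, a Krt8 pseudogene that can take reads from Krt8, had the time course most like that of Krt8, so a part of either count may belong to the other.

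Krt7, a type II keratin of ducts, and Krt23, a type I keratin, followed other courses than the main pair. Krt7 had 1 count in 1 of the 4 WT libraries at 2 h, and 8.67, 8.96, 13.9 and 27.9 CPM at 120 h. From the pooled counts, the ratio of 120 h to 2 h was 708, with a 95% counting interval of 127.1 to 27962, an interval that covers counting error only. Its highest vehicle group under label WT was not the last: 35.9, 44.4, 50.3 and 52.3 CPM at 96 h, above all 4 libraries at 120 h. In the Pkm ΔDRE libraries Krt7 reached 14.8 to 29.1 CPM at 120 h and had a pooled ratio of 97.6 (95% counting interval 54.5 to 195) from 11 counts at 2 h. Krt23 stayed low. It was at 1.67, 1.86, 3.47 and 9.08 CPM at 2 h and 0.965, 1.44, 2.55 and 3.87 at 120 h under label WT, groups that overlap (log2 fold change -1.01, SE 0.67, edgeR adjusted p = 0.19). The fall of Krt23 under label Pkm ΔDRE, from 1.89 to 4.71 CPM to 0.361 to 1.89, passed the test (log2 fold change -1.74, SE 0.70, edgeR adjusted p = 0.038), but the call was lost when replicate 1 or 4 of 2 h or replicate 2, 3 or 4 of 120 h was left out and without a filter on low counts.

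Vim, the mesenchymal filament gene, and Acta2 rose under both labels. Vim was at 43.9, 51.2, 55.4 and 67.04 CPM at 2 h and at 1592, 1671, 1751 and 2009 at 120 h under label WT, a log2 fold change of 4.83 (SE 0.43, edgeR adjusted p = 2.3e-11). In the Pkm ΔDRE libraries it was at 52.9, 59.3, 82.6 and 84.4 CPM and then 1402, 1459.9, 1968 and 2500.1, a log2 fold change of 4.52 (SE 1.13). Every 120 h library exceeded every 2 h library under both labels. Acta2 had no count in the 4 WT libraries at 2 h, and 8.63, 13.4, 16.2 and 54.1 CPM at 120 h. Against a floor of 3 counts over the 2 h group, 0.0659 CPM, Acta2 was at least 351-fold higher at 120 h. For label Pkm ΔDRE it had 10 counts at 2 h and 10.7, 12.4, 25.1 and 94.4 CPM at 120 h, with a pooled ratio of 167 (95% counting interval 90.7 to 348). In each 120 h group 1 library was far above the others in Acta2, 54.1 CPM next to 16.2 and 94.4 next to 25.1. Without these libraries the bound under label WT was at least 194-fold and the pooled ratio under label Pkm ΔDRE 79.9.

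Markers of other cells moved with these genes, where 33.4% of all genes were higher and 24.5% lower at 120 h under label WT. Of the stellate cell and fibroblast list, 11 of 12 genes were tested under label WT between 2 h and 120 h, with 5 higher and 1 lower, and their summed level went from 19.8 to 27.5 CPM to 23.5 to 197. Col1a1, the collagen I chain of fibroblasts, was at 0 to 0.279 CPM and then 7.01 to 61.1, whereas the stellate gene Lrat, at 0 in 3 libraries at 2 h, reached 0.383 to 1.22. The collagens Col1a2 and Col3a1, at most 1.02 CPM at 2 h, reached 3.36 to 34.7 and 4.80 to 65.3. In the same list Reln fell from 9.56 to 13.4 CPM to 2.25 to 7.40, and Dcn was at 4.84 to 11.15 and then 2.21 to 15.8. Of the smooth muscle markers 6 of 6 tested were higher, with sums of 2.30 to 4.39 and then 13.7 to 19.9 CPM. Of this list Actg2 and Lmod1 were at 0 in all 4 libraries at 2 h, and Des, Actg2, Cnn1 and Krt19 each stand in more than 1 list used here. The duct (cholangiocyte) markers summed to 61.1 to 150 CPM and then 644 to 1129, with 3 of 5 tested genes higher and 1 lower. Epcam, which defines duct cells, was at 0 to 1.03 CPM at 120 h, and Cftr and Anxa13 were under 1 CPM in all of these libraries. Of the endothelial markers 6 of 9 were lower, and of the macrophage and leukocyte markers 4 of 9. Of the hepatocyte markers 9 of 10 fell, and their sum went from 132560 to 179450 CPM to 3695 to 17665. Of 2 mesothelial markers tested 1 was higher and 1 lower, and the list stayed at or below 4.85 CPM in sum at both hours, with Msln at 0 at 2 h and at 2.13 to 4.66 at 120 h. The part of other cell types in the rise of Vim, Acta2 and Krt7 was not tested.

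The study used Actb, the cytoplasmic beta-actin, with Gapdh and Hprt as qPCR references, relative to vehicle control, a comparison that culture time does not address. Actb did not hold its level between hours in vehicle libraries. It was at 6507, 7635, 7694 and 8252 CPM at 2 h and 1812, 1841, 2041 and 2599 at 120 h under label WT, a fall of 2.03 on the log2 scale (SE 0.22, edgeR adjusted p = 2e-09). The 2 h libraries labelled Pkm ΔDRE held 6903 to 9603 CPM and the 120 h libraries 1373 to 3067 (log2 fold change -2.15, SE 0.48). By steps, Actb had a log2 fold change of 0.01 (SE 0.21) from 2 h to 8 h and of 0.11 (SE 0.21) from 8 h to 24 h under label WT, and of -1.44 (SE 0.22, edgeR adjusted p = 8.2e-06) from 24 h to 72 h. Tubb6, a beta-tubulin of microtubules, was at 505, 505, 533 and 576 CPM at 2 h and 60.7, 62.7, 74.1 and 86.03 at 120 h, a fall of 3.07 on the log2 scale (SE 0.26, edgeR adjusted p = 7.2e-12). The corresponding value under label Pkm ΔDRE was -3.50 (SE 0.58), from 562 to 723 CPM to 44.7 to 91.2.

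The cadherins changed places. Cdh1 was at 566, 594, 601 and 744 CPM at 2 h and 74.4, 109.9, 113.8 and 177 at 120 h under label WT, a fall of 2.57 on the log2 scale (SE 0.26, edgeR adjusted p = 3.9e-10). Cdh2 was at 28.4, 31.99, 35.6 and 52.1 CPM and then 174, 204, 206 and 216, with a log2 fold change of 2.27 (SE 0.19, edgeR adjusted p = 3.1e-12). Under label Pkm ΔDRE the log2 fold changes were -2.49 (SE 0.42) for Cdh1 and 2.44 (SE 0.49) for Cdh2. Per kilobase of transcript, the log2 ratio of Cdh2 to Cdh1 was -4.51 to -3.66 in the WT vehicle libraries at 2 h and 0.16 to 1.34 at 120 h. In the Pkm ΔDRE vehicle libraries it was -4.75 to -4.18 and then 0.04 to 0.85, so Cdh1 exceeded Cdh2 in every vehicle library at 2 h and Cdh2 exceeded Cdh1 in every one at 120 h.

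**Figure D2:**
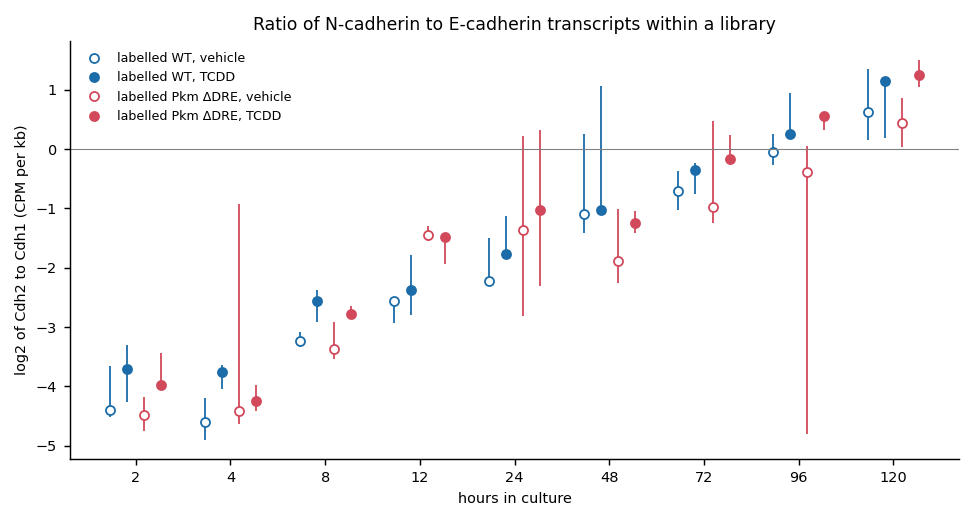
log2 ratio of Cdh2 to Cdh1 (CPM per kilobase of transcript) against hours in culture, with the median (circle) and the lowest to highest library (line) of each group of 4, open for vehicle and filled for TCDD. Medians pass from between -4.48 and -3.70 at 2 h to between 0.44 and 1.24 at 120 h, and the long red lines of vehicle at 4 h and 96 h reach to the mismatched libraries.

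On the scale of CPM per kilobase, the order of the members in WT vehicle libraries at 2 h was Krt18 (4421), Krt8 (3963) and Actb (3918), whose libraries overlapped, then Tubb6 (301), Cdh1 (141.4), Vim (24.8), Cdh2 (7.64) and Krt23 (2.57), each clear of the next, with Krt7 and Acta2 at or near 0. At 120 h it was Krt8 (1366), Krt18 (1366) and Actb (1079.8), which overlapped, then Vim (801), which stood below all 4 Actb libraries and above all Cdh2 libraries. Cdh2 (41.3), Tubb6 (40.3), Cdh1 (26.8), Acta2 (11.3), Krt7 (3.63) and Krt23 (1.41) followed, each overlapping the next. Vim thus moved from place 6 to place 4, and Cdh2 from place 7 to place 5.

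The steps between hours differed by gene. Under label WT, 3 of 10 members were called from 2 h to 8 h (background 31.9%): Cdh1 fell by 1.24 on the log2 scale (SE 0.25), Krt23 fell by 2.10 (SE 0.71) and Vim rose by 0.95 (SE 0.37, edgeR adjusted p = 0.043). The Vim call was lost without replicate 2, 3 or 4 of 2 h or replicate 3 or 4 of 8 h (0.64 and 0.53 on the log2 scale), in a fit of those 8 libraries alone, with no low-count filter and with RLE scaling, and that of Krt23 without replicate 3 of 2 h or replicate 3 or 4 of 8 h. The 4 WT libraries at 8 h split in Vim, at 33.5 and 34.1 CPM in libraries with 13.4% and 13.5% of pairs unmapped and 171 and 185 CPM in libraries with 9.18% and 8.97%. From 8 h to 24 h, 3 were called (background 29.1%): Acta2 at 3.86 (SE 1.03), Vim at 2.88 (SE 0.39) and Cdh2 at 1.62 (SE 0.18). From 24 h to 72 h, 6 were called (background 22.7%), with Krt7 at 3.14 (SE 0.77) and Actb, Cdh1, Krt18, Krt8 and Tubb6 between -1.44 and -1.16. The Krt7 estimate was 2.17 without replicate 4 of 72 h. From 72 h to 120 h, 3 were called (background 3.48%): Cdh2 at 0.65 (SE 0.18), Krt18 at -0.78 (SE 0.21) and Tubb6 at -1.22 (SE 0.24). Cdh2 and Krt18 lost that last call without replicate 3 or 4 of 72 h or replicate 1, 3 or 4 of 120 h. The other WT step calls held when any 1 of the 36 vehicle libraries was left out.

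Fewer steps were called under label Pkm ΔDRE, where standard errors were larger: that of Vim from 2 h to 120 h was 1.13 with the mismatched libraries and 0.66 without them. No member was called from 2 h to 8 h, from 8 h to 24 h or from 72 h to 120 h (backgrounds 11%, 3.33% and 0.0564%). Krt7 at 3.66 (SE 1.16) and Tubb6 at -1.68 (SE 0.54) were called from 24 h to 72 h (background 8.74%), but Krt7 kept its call in 20 and Tubb6 in 8 of 36 fits that left out 1 vehicle library each. Without the mismatched libraries, the counts were 1, 3, 4 and 0 in the order of the steps, against backgrounds of 17.4%, 12.5%, 16.5% and 1.04%. The members called in that fit were Cdh1 at -1.11 (SE 0.35), then Acta2 at 3.56 (SE 0.91), Cdh2 at 0.91 (SE 0.25) and Krt7 at 3.33 (SE 0.78), then Cdh2 at 0.96 (SE 0.25), Krt7 at 3.70 (SE 0.65), Tubb6 at -1.63 (SE 0.37) and Vim at 2.36 (SE 0.60). The 24 h group of this label was split: Vim was at 18.9 and 69.6 CPM in 2 of its vehicle libraries and 679 and 740 in the other 2, and its TCDD libraries had 41.1 and 55.8 against 544 and 599.

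The second comparison set TCDD against vehicle at each hour, to ask how AHR activation altered the members. In libraries labelled WT members were called mainly at 8 h and 96 h, where most called members were lower with TCDD. These were also the hours with the largest shares of all genes called, 37.4% and 15.1%. Over the 9 hours, 12 calls were made in 82 tests of a member at an hour under label WT and 1 call in 81 tests under label Pkm ΔDRE. The share of all genes called at an hour ran from 0.0% to 37.4% under label WT and from 0.0% to 1.13% under label Pkm ΔDRE. Krt7 and Acta2 had too few counts to be tested at 2, 4, 8 and 12 h, as had Krt23 at 24 h under label Pkm ΔDRE.

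**Figure D3:**
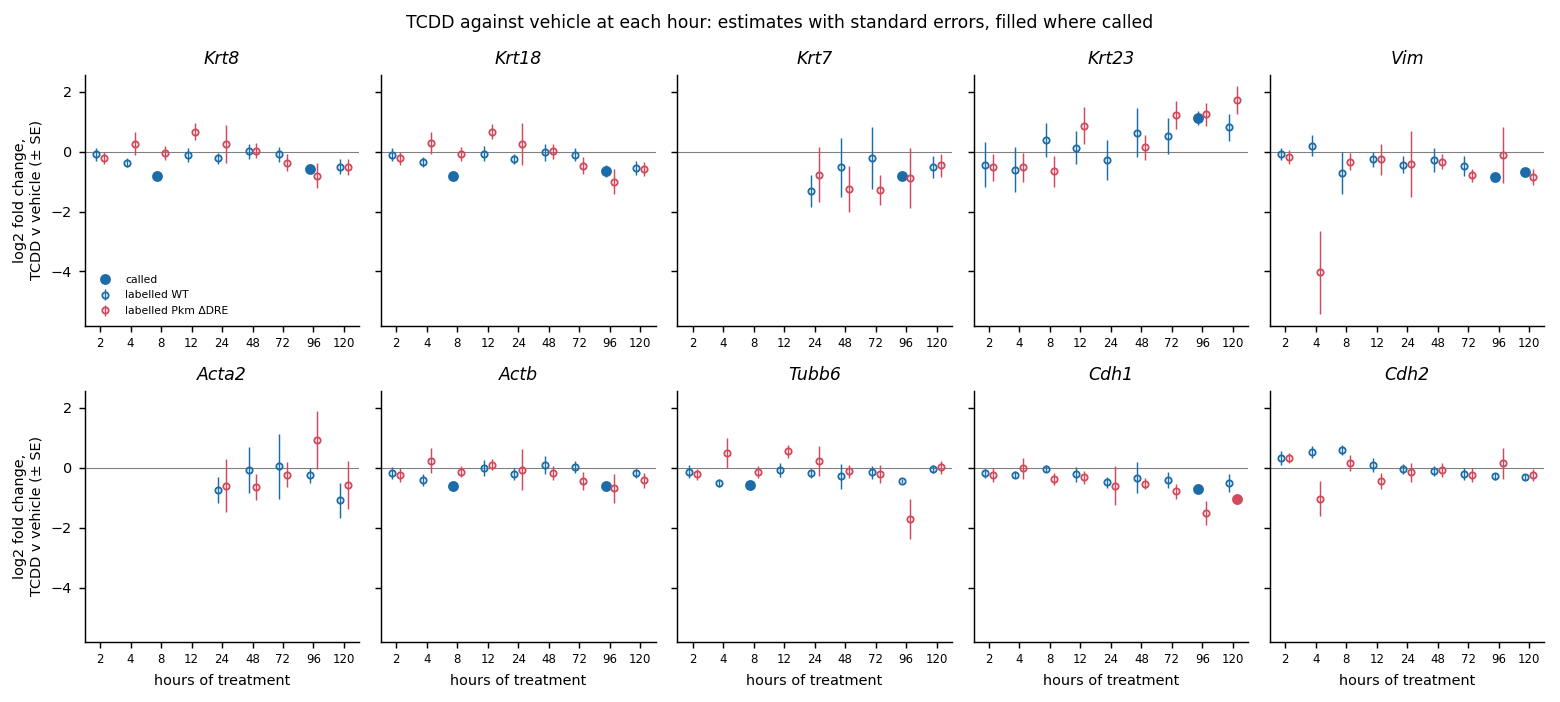
log2 fold change of TCDD against vehicle (circle) with its standard error (line) for each gene at each hour of treatment, blue for label WT and red for label Pkm ΔDRE, filled where the gene was called. Filled points of label WT stand at 8 h and 96 h and for Vim at 120 h, the filled red point is Cdh1 at 120 h, and Cdh1 lies below 0 at each hour under both labels.

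At 8 h under label WT, 4 of 8 members tested were called, all lower, where 37.4% of 12392 genes were called (23.8% higher and 13.6% lower). Krt8 was at 10628, 11221, 11532 and 11790 CPM with vehicle and 5163, 6763, 7095 and 7122 with TCDD. The log2 fold change of Krt8 was -0.82 (SE 0.16, edgeR adjusted p = 0.0022). Its groups did not overlap, but the test that picked it used the same values. The share of all genes without overlap at this hour is not given. Krt18 was at 7095, 7526, 8411 and 8450 CPM and at 3615, 4871, 4943 and 4965 with TCDD, a log2 fold change of -0.81 (SE 0.16, edgeR adjusted p = 0.0024). Both keratins kept their calls when any 1 of the 8 libraries was left out. Actb had a log2 fold change of -0.61 (SE 0.17, edgeR adjusted p = 0.012), with vehicle at 6652 to 8328 CPM and TCDD at 3909 to 6210, and Tubb6 of -0.59 (SE 0.13, edgeR adjusted p = 0.0036), with vehicle at 433 to 531 CPM and TCDD at 302 to 361. Their calls lay close to the fold limit: that of Actb was lost without vehicle replicate 3 or 4 or TCDD replicate 3, and that of Tubb6 without vehicle replicate 1 or 2 or TCDD replicate 3 or 4. Cdh2 was higher in each TCDD library (39.6 to 56.9 CPM, against 26.9 to 37.3) with an adjusted p of 0.014 in the edgeR test, but its log2 fold change of 0.58 (SE 0.17) was under the fold limit of 1.5. Cdh1 was at 247 to 287 CPM with vehicle and 225 to 310 with TCDD (log2 fold change -0.03, SE 0.13).

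The TCDD libraries of this hour also stood apart in read quality. The share of uniquely mapped pairs on no gene was 8.36% to 21.9% in them and 4.89% to 5.99% in the vehicle libraries, without overlap, and TCDD replicate 1 had 23.6% of its pairs unmapped and 48.0% counted to no gene. When the no-gene share entered the fit as a covariate, the Krt8 estimate was -0.95 (SE 0.22), Krt18 -0.91 (SE 0.22) and Tubb6 -0.63 (SE 0.18), all still called, Cdh2 at 0.76 (SE 0.21) was called too, and Actb was at -0.61 (SE 0.24, edgeR adjusted p = 0.057). With the share unmapped as a covariate, tried after the data were seen, Krt8, Krt18, Actb, Tubb6 and also Cdh2, at 0.63 (SE 0.14), were called. When all 72 libraries of label WT were fitted together 4872 genes were called at 8 h, and 11 with 1 surrogate variable, where Krt8 was at -0.45 (SE 0.21) and Krt18 at -0.41 (SE 0.21).

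**Figure D4:**
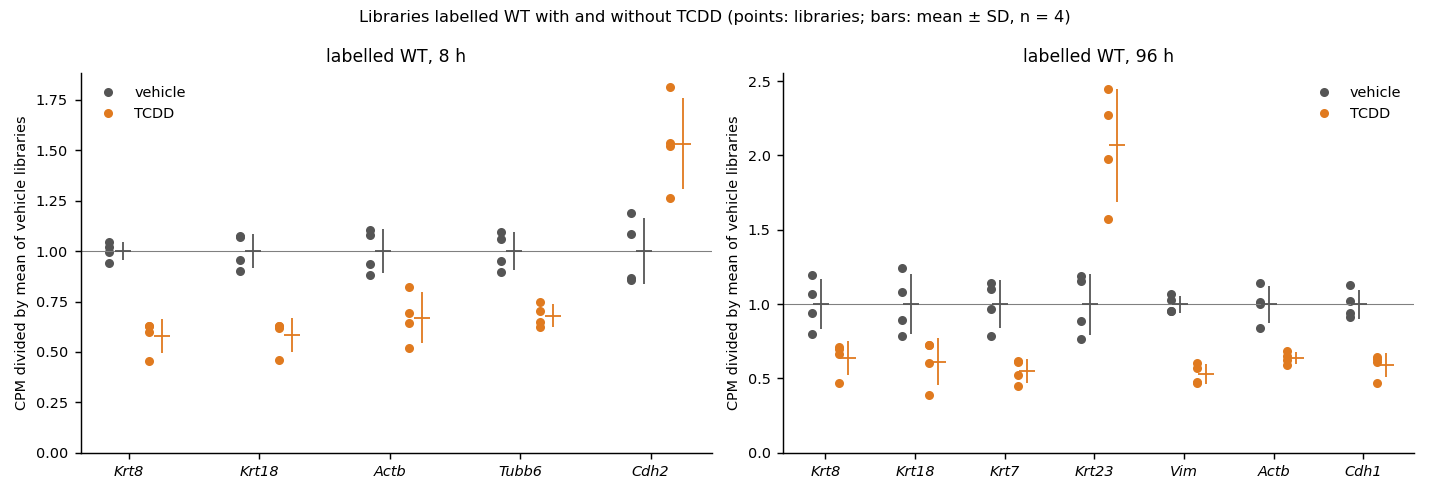
CPM of each library divided by the mean of the 4 vehicle libraries, for genes of libraries labelled WT at 8 h (left) and 96 h (right), with points for libraries and bars for mean ± SD (n = 4), grey for vehicle and orange for TCDD. Krt8, Krt18, Actb and Tubb6 are lower and Cdh2 higher in each TCDD library at 8 h, and at 96 h Krt23 is higher and the other genes shown are lower in each TCDD library. The share of all genes so separated is not given.

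Genes of the same structures moved in both directions at 8 h under label WT. Of 28 actin-binding and contractile genes tested, 4 were higher and 6 lower, with a median log2 fold change of -0.33 beside 0.00 over all genes. Of 11 other tubulins 2 were lower and 0 higher (median -0.53), 6 of 17 desmosome, tight and gap junction genes were higher and 3 lower (median 0.33), and 3 of 9 adherens junction genes were higher and 3 lower. Of 12 tested regulators of epithelial-mesenchymal transition, 5 were higher and 0 lower, named here after their values were seen: Zeb1, a repressor of Cdh1, at 1.80 (SE 0.33), Zeb2, its relative, at 1.79 (SE 0.65), Tgfbr1 at 1.54 (SE 0.23), Tgfb2 at 0.95 (SE 0.32) and Smad2 at 0.86 (SE 0.21). Read quality differed between the groups of this hour, so the calls were also refitted with measures of it. The no-gene share did not overlap between the groups, so such fits cannot separate it from treatment. Without TCDD replicate 1, 5 were called, as with the share unmapped as a covariate. When the no-gene share was a covariate 4 were called (not Zeb2, adjusted p = 0.056 in edgeR). With the surrogate variable, a fit that called 11 of 16838 genes, 0 were called and Tgfbr1 was at -0.64 (SE 0.46). Zeb1, Tgfbr1 and Smad2 kept their calls when any 1 library was left out, Zeb2 in 3 of 8 such fits and Tgfb2 in 2. Direction went with transcript length among the called genes of these lists. Genes called lower had 665 (Myl6) to 3205 bases (Jup), except Nectin1 at 5653, and genes called higher had 3062 (Nectin3) to 9592 (Dsp). Of the members, Krt18, Tubb6, Actb and Krt8, called lower, had 1437 to 1958 bases, and Cdh2, higher but not called, had 4843. The part of transcript length in these differences was not tested. Stellate cell and fibroblast markers had 1 of 3 tested genes higher, with summed levels of 14.3 to 18.9 CPM with vehicle and 47.4 to 96.0 with TCDD. Macrophage and leukocyte markers were lower at this hour, 5 of 8 tested, with summed levels of 161 to 207 CPM with vehicle and 64.5 to 126.5 with TCDD. Their part in the member differences was not tested.

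At 96 h under label WT, 7 of 10 members were called, 1 higher and 6 lower, where 15.1% of 13793 genes were called (10.1% higher and 5.0% lower). Vim, at 1862, 1867, 2007 and 2089 CPM with vehicle, was at 924, 925, 1113 and 1185 with TCDD (log2 fold change -0.86, SE 0.10, edgeR adjusted p = 0.00025). Krt7 was at 35.9, 44.4, 50.3 and 52.3 CPM and at 20.5, 23.8, 28.0 and 28.2 with TCDD (log2 fold change -0.80, SE 0.13, edgeR adjusted p = 0.0013). Cdh1 was at 148, 152, 166 and 183 CPM and at 76.1, 99.2, 102.3 and 104.4 with TCDD (log2 fold change -0.71, SE 0.10, edgeR adjusted p = 0.00079). Thus a mesenchymal filament gene, a duct keratin and the epithelial cadherin were all lower at the same hour. Their treatments did not overlap, but the test that picked them used the same values, and the share of all genes without overlap is not given. Krt23 was the member that rose, from 1.62, 1.87, 2.43 and 2.50 CPM to 3.31, 4.17, 4.79 and 5.15 (log2 fold change 1.11, SE 0.23, edgeR adjusted p = 0.005). These 4 calls held when any 1 library was left out.

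The other 3 calls at 96 h were less firm. Krt18 had a log2 fold change of -0.65 (SE 0.19, edgeR adjusted p = 0.023) and lost its call without vehicle replicate 4 or TCDD replicate 1. Krt8 had a log2 fold change of -0.59 (SE 0.14, edgeR adjusted p = 0.0085) and lost it without vehicle replicate 3 or 4 or TCDD replicate 1, and Actb, at -0.59 (SE 0.11, edgeR adjusted p = 0.0022), without vehicle replicate 1 or 2 or TCDD replicate 1 or 3. Vehicle replicate 3 is the library with 1717 CPM of Cyp1a1, and without it 6 of the 7 calls remained, with Vim at -0.89, Krt7 at -0.76, Cdh1 at -0.70, Krt23 at 1.19, Actb at -0.68, Krt18 at -0.61 and Krt8, no longer past the fold limit, at -0.57. TCDD replicate 1, without which Krt8, Krt18 and Actb lost their calls, had 63.3% of its counts on 1 strand, where every other library had at most 51.5%. It also had 11.4% of its pairs unmapped, against 3.9% to 6.6% in the other 3 TCDD and 3.5% to 6.2% in the vehicle libraries, and the share of unique pairs on no gene was 9.1% to 11.8% with TCDD and 6.2% to 9.4% with vehicle. When the no-gene share was a covariate, Vim at -0.74, Cdh1 at -0.59 and Actb at -0.71 were still called, and with the share unmapped Vim at -0.78, Krt7 at -0.68, Krt23 at 1.00 and Actb at -0.60 were. Acta2 was at 18.6 to 44.04 CPM with vehicle and 16.6 to 26.7 with TCDD, with a log2 fold change of -0.25 (SE 0.24). Tubb6 was lower in each TCDD library but under the fold limit (log2 fold change -0.44, SE 0.08). When the 72 libraries of label WT were fitted together, the 4 calls at 8 h stayed and the 7 calls at 96 h and the call at 120 h were lost, and with 1 surrogate variable added none of the 12 calls remained.

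Other actin, actin-binding and keratin genes differed at 96 h too, and those given were named after their values were seen. Actg1, cytoplasmic gamma-actin, had a log2 fold change of -0.68 (SE 0.09), Actg2 of smooth muscle of -1.27 (SE 0.42) and Acta1 of skeletal muscle of 1.13 (SE 0.29). Of 30 actin-binding and contractile genes tested, 2 were higher and 6 lower, among the latter the calponin Cnn2 at -1.03 (SE 0.11) and the focal adhesion genes Zyx at -0.59 (SE 0.09) and Tln1 at -0.59 (SE 0.11). Krt19, the duct keratin partner of Krt7, was lower at -1.33 (SE 0.22). The smooth muscle list had 3 of 6 tested genes lower and 0 higher, with sums of 18.9 to 21.8 CPM and 12.3 to 18.1 with TCDD, and the endothelial list had 4 of 8 lower. Stellate cell and fibroblast markers had 1 of 11 higher and 0 lower, with sums of 67.9 to 182 CPM and 101.3 to 313 with TCDD, and duct markers had 1 of 5 lower, with sums of 627 to 1383 and 411 to 839 CPM. Their part in the member differences was not tested.

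Vim was the 1 member of 10 called at 120 h under label WT (background 1.46%), at 1592 to 2009 CPM with vehicle and 974.7, 1020.1, 1029 and 1379.5 with TCDD. Its log2 fold change was -0.67 (SE 0.14, edgeR adjusted p = 0.047), and the call held in 2 of 8 fits that left out a library, being lost without vehicle replicate 1, 3 or 4 or TCDD replicate 1, 2 or 4. No member was called at 2, 4, 12, 24, 48 or 72 h in edgeR's test or in DESeq2's, although 5 of these 54 tests had an unadjusted p below 0.05 in edgeR. The share of all genes called was 0.0% at 2, 4 and 72 h, 0.0321% (12 h), 0.373% (24 h) and 0.00763% (48 h). At 48 h and 72 h 1 library each had Cyp1a1 against its treatment label, at 3285 CPM with vehicle and 29.2 with TCDD. Member estimates without these libraries are not given here. The Krt23 estimate was above 0 at each of the 4 hours from 48 h on, from 0.53 to 1.11, and Vim and Krt7 were below 0 at each of them.

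Under label Pkm ΔDRE, Cdh1 at 120 h was the only member called, 1 of 10 where 0.633% of 14373 genes were called. It was at 103.9, 124.6, 127.2 and 159.6 CPM with vehicle and 55.04, 58.9, 62.9 and 78.3 with TCDD. Its log2 fold change was -1.04 (SE 0.17, edgeR adjusted p = 0.024). The call held in 1 of 8 fits that left out a library, being lost without vehicle replicate 1, 3 or 4 or any 1 TCDD replicate. The call was also lost with the share unmapped as a covariate and when the label's libraries were fitted together. At the other 8 hours no member was called by edgeR, 13 of 71 tests had an unadjusted p below 0.05, and DESeq2 called 2: Vim at 72 h and Cdh1 at 96 h. The shares of all genes called at those hours were 0.0% at 2 and 4 h, 0.106% (8 h), 0.024% (12 h), 0.016% (24 h), 0.404% (48 h), 1.13% (72 h) and 0.0793% (96 h). Read quality also differed between treatments under this label. At 120 h 4.06% to 6.68% of pairs were unmapped with vehicle and 2.20% to 2.48% with TCDD. These ranges did not overlap, and those at 48 h and 96 h did not either. At these hours a fit with the share unmapped cannot separate it from treatment, for Cdh1 or any other gene.

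Several estimates under this label differed with and without the mismatched libraries. At 96 h Cdh1 had a log2 fold change of -1.50 (SE 0.39, edgeR adjusted p = 0.45) with the mismatched library and of -0.98 (SE 0.17, edgeR adjusted p = 0.012, called) without it, the background then being 2.25%. Without that library, Cdh1 was at 157, 162 and 186 CPM with vehicle and 76.1 to 110.8 with TCDD. Tubb6 went from -1.71 (SE 0.68) to -0.56 (SE 0.28) at 96 h. Vim at 4 h went from -4.03 (SE 1.39) to -0.46 (SE 0.35) without the mismatched library, whose 2210 CPM stood against 35.9 to 60.1 in the other 3. Krt23 was above 0 at each of the 4 hours from 48 h on under this label as well, from 0.14 to 1.73, with 0.361 to 1.89 CPM in vehicle and 2.89 to 4.36 in TCDD libraries at 120 h. That difference had an edgeR adjusted p of 0.19 but was called by DESeq2 (log2 fold change 1.71, adjusted p = 0.013) and by edgeR with no filter on low counts (1.78, adjusted p = 0.045). At 72 h, leaving out vehicle replicate 1, the library most like 120 h, brought calls of Actb at -0.64 (SE 0.19), Cdh1 at -0.95 (SE 0.20) and Vim at -0.86 (SE 0.19).

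Cdh1 had the same sign in all 18 comparisons, below 0 at 9 of 9 hours under each label. The share of all genes with the same sign at every hour is not given here. The estimates ran from -0.71 to -0.03 under label WT and from -1.50 to -0.02 under label Pkm ΔDRE, both ends of the latter coming from the hours of the mismatched libraries. Without these libraries the range was -1.04 to -0.25, and the values at 4 h and 96 h were -0.25 and -0.98. Krt18 and Tubb6 were below 0 at 9 of 9 hours under label WT but at 5 of 9 under label Pkm ΔDRE, Vim at 8 of 9 and 9 of 9, and Krt7 at 5 of 5 tested hours under each label, and these counts were the same without the mismatched libraries. At 12 h under label Pkm ΔDRE, Krt8, Krt18 and Tubb6 had estimates of 0.67 (SE 0.28), 0.67 (SE 0.25) and 0.54 (SE 0.23), opposite to those at 8 h under label WT, and none passed the test (edgeR adjusted p = 0.51 for each). Tuba8, an alpha-tubulin picked out after its values were seen, was higher with TCDD in the calls of both labels, at 2.12 (SE 0.26) and 2.15 (SE 0.32) at 96 h and 120 h under label WT and 3.32 (SE 0.42) and 2.18 (SE 0.30) under label Pkm ΔDRE, where the 96 h value was 3.02 (SE 0.28) without the mismatched library.

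The difference between labels in the TCDD response was tested directly by an interaction of label and treatment at each hour. No member was called at any hour by edgeR, with 4 of 82 tests at an unadjusted p below 0.05, or by DESeq2, with 6 of 82. Across all genes the share called was 0.0% at 2, 4, 8, 12, 24, 96 and 120 h, 0.00715% at 48 h and 0.00695% at 72 h. The nearest at 8 h were Krt8, whose response differed by 0.66 on the log2 scale (SE 0.28, edgeR adjusted p = 0.30), and Krt18, by 0.60 (SE 0.27, edgeR adjusted p = 0.31). At 96 h the difference for Cdh1 was -0.81 (SE 0.40), for Vim 0.71 (SE 1.02) and for Krt23 0.11 (SE 0.43), each with an edgeR adjusted p of at least 0.41. Without the mismatched library these were -0.32 (SE 0.19), 0.25 (SE 0.21) and 0.13 (SE 0.42), and the Vim difference at 4 h went from -4.21 (SE 1.42) to -0.63 (SE 0.54) without the mismatched library of that hour. The larger count of calls under label WT is therefore not shown to be a difference between the labels.

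The labels were also compared directly in vehicle libraries. At 12 h, 3 of 8 members tested were lower under label Pkm ΔDRE, where 3.89% of 12650 genes were called (1.27% higher and 2.62% lower). Actb was at 7061, 7075, 8620.5 and 9252 CPM under label WT and 3395, 3863, 3918 and 4177 under label Pkm ΔDRE (log2 difference -1.04, SE 0.18, edgeR adjusted p = 0.02). Cdh1 was at 227, 372, 402 and 435 CPM and at 125.03, 135.7, 140.7 and 170.1 (log2 difference -1.30, SE 0.21, edgeR adjusted p = 0.015). Krt18 was at 6305, 7073, 7622 and 8997 CPM and at 3740.3, 4023, 4110.1 and 4270.1 (log2 difference -0.88, SE 0.18, edgeR adjusted p = 0.032). In all 3 genes the labels did not overlap, but the test that picked them used the same values. The share of all genes without overlap is not given here. Krt8, Tubb6 and Vim, at -0.71 (SE 0.20), -0.64 (SE 0.19) and -1.31 (SE 0.34), were not past the test in edgeR (adjusted p of 0.075, 0.076 and 0.06) and were called by DESeq2. Each of the 3 edgeR calls was lost without WT replicate 2 or Pkm ΔDRE replicate 1, 3 or 4.

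Genes of the actin system were lower too, named here after their values were seen. Of 28 actin-binding and contractile genes tested 10 were lower and 0 higher (median log2 difference -0.73, beside 0.03 over all genes), among them Flna, the filamin that crosslinks actin, at -1.26 (SE 0.22), the non-muscle myosin heavy chain Myh9 at -0.95 (SE 0.18), the myosin light chains Myl12a at -1.10 (SE 0.16) and Myl6 at -1.04 (SE 0.18), and the thymosin Tmsb10 at -1.88 (SE 0.41). The other actins Actg1 at -0.85 (SE 0.18) and Acta1 at -4.72 (SE 0.90) were lower, as was Srf, the serum response factor that drives actin genes, at -0.92 (SE 0.18). Duct markers had 2 of 4 tested genes lower, with sums of 43.8 to 107.6 CPM under label WT and 21.3 to 37.7 under label Pkm ΔDRE. Their part in the difference was not tested. When all 72 vehicle libraries were fitted together, no member was called at 12 h. No member was called at any of the other 8 hours, where the share of all genes called was 0.0576% at 8 h and 0.0% at 2, 4, 24, 48, 72, 96 and 120 h. Without the mismatched libraries edgeR called no gene at 4 h or 96 h, although 651 and 1214 had an unadjusted p below 0.05. Over the 9 hours 9 of 82 member tests had an unadjusted p below 0.05 in edgeR, and DESeq2 made 6 calls in all, each at 12 h.

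The wider families showed which of the culture changes were shared by their relatives. Over all 15862 genes tested under label WT, 33.4% were higher and 24.5% lower in this comparison. Between 2 h and 120 h under label WT, 3 of 3 tested keratins of simple epithelia beside the members were higher, led by Krt19 at 6.41 (SE 0.66), from 0.47 ± 0.322 to 45.1 ± 16.9 CPM (SD, n = 4), and Krt20 at 3.86 (SE 0.89). Of 8 other intermediate filament and lamina genes 6 were higher, led by Synm at 3.13 (SE 0.91) and Nes at 2.76 (SE 0.79), and Plec, which links filaments to junctions, was lower at -0.74 (SE 0.16). The actin Actg1 fell by 2.40 on the log2 scale (SE 0.22), beside Actb, whereas the muscle actins Actg2 and Acta1 were higher, so that of 4 other actins 2 were higher and 1 lower. Of 31 actin-binding and contractile genes 19 were higher and 4 lower (median 1.18), with Vil1 at 5.86 (SE 0.83) and Myl9 at 4.84 (SE 1.03) at one end and Lcp1 at -1.73 (SE 0.30) and Zyx at -1.37 (SE 0.18) at the other.

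Tubulins moved in both directions, as did all genes (33.4% higher and 24.5% lower). Of 14 tested, 4 were higher and 3 lower: Tubb2b went from 0.183 ± 0.308 to 199.9 ± 20.98 CPM (SD, n = 4) at a log2 fold change of 9.92 (SE 0.77) and Tuba1a rose by 8.54 (SE 0.82), whereas Tuba4a fell by 2.16 (SE 0.25) and Tuba1c fell by 2.05 (SE 0.22), like Tubb6. Among adherens junction genes 8 of 11 were higher and 2 lower, with Afdn at 3.07 (SE 0.44), Cdh6 higher from no count at 2 h to 13.4 ± 6.59 CPM, and the cadherins Cdh4 at -3.53 (SE 1.01) and Cdh13 at -2.13 (SE 0.72). Desmosome, tight and gap junction genes had 7 higher and 7 lower of 17: Tjp1 at 3.39 (SE 0.52) and Dsp at 3.04 (SE 0.44), against Cldn14 at -7.43 (SE 0.48) and the hepatocyte gap junction gene Gjb1 at -4.99 (SE 0.36). Regulators of epithelial-mesenchymal transition had 7 higher and 3 lower of 14, with Tgfb3 at 4.13 (SE 0.72) and Tgfb2 at 3.85 (SE 0.41) against Twist1 at -3.46 (SE 0.59) and Tgfbr2 at -1.66 (SE 0.24). The serum response factor group had 2 higher and 2 lower of 6, with Elk3 at 3.16 (SE 0.53), Mrtfb at 0.71 (SE 0.28), Srf at -2.55 (SE 0.25) and Elk4 at -0.69 (SE 0.27). Under label Pkm ΔDRE each of these named genes had the same sign, and all but Vil1, Acta1 and Elk4 were called there too, as were Vil1 and Acta1 without the mismatched libraries.

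As a description over the 36 group means of log2(CPM + 1), the members formed 2 opposite sets. Krt8 and Krt18 had a Pearson r of 0.988 with each other and 0.937 and 0.954 with Actb, and Vim had 0.930 with Acta2, 0.935 with Cdh2 and 0.880 with Krt7. Krt8 with Vim gave -0.632 and Tubb6 with Cdh2 -0.867, and Krt23 was least like any other, its values running from -0.547 with Krt8 to 0.413 with Krt7. Without the mismatched libraries, Krt8 with Vim gave -0.641, Tubb6 with Cdh2 -0.874 and Krt23 with Krt7 0.373. All members share the time course, the libraries and the scaling, so no p is given. Among 9323 other genes, those most like each member included Krt8-ps and Pgam5 for Krt8 (r of 0.970 and 0.962) and Krt8-ps and S100a10 for Krt18 (0.955 and 0.953), and were Zfp57, Slc44a2 and Lhfp for Krt7 (0.967 to 0.972) and Oplah, H3f3a and Ccng2 for Krt23 (0.852 to 0.871). For Vim they were Emp2, Slc25a4 and Pak6 (0.982 to 0.983), for Acta2 Trim35, Adgra2 and Erbb2 (0.978 to 0.982), for Actb Gpx1, Got2 and Cdhr5 (0.945 to 0.952), for Tubb6 Got2, Fuom and Gpx1 (0.973 to 0.977), for Cdh1 Dhx58, Dusp5 and Parp12 (0.931 to 0.939) and for Cdh2 Rbfox2, Pld1 and Exoc4 (0.974 to 0.981). Without the mismatched libraries the nearest gene of each member was the same except for Cdh1, where it was Dusp5 (0.941), and Cdh2, where it was Pld1 (0.982).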

How the data were processed

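Poly(A) RNA-seq libraries from cultured primary hepatocytes were analysed, 144 in all, with groups taken from the labels. The values are raw counts of reads per gene that the authors deposited from STAR 2.7 against GRCm39, after FastQC 0.11.3 and Trimmomatic 0.39 per the labels. The unstranded column was used, so antisense genes cannot be told apart, and the 4 lines naming no gene (16.8% to 48.0% of pairs) were left out. Symbols came from an older annotation and matched 52083 of 55359 IDs.

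CPM values use TMM library sizes. Each comparison was fitted with edgeR 4.0.16 (R 4.3.3), quasi-likelihood, on genes kept by filterByExpr (count minimum 10, total 15): TCDD against vehicle within label and hour, label by treatment, label in vehicle, and hours within vehicle of 1 label. Calls needed a Benjamini-Hochberg adjusted p below 0.05 over all genes tested and a fold change of 1.5. DESeq2 1.42.0, other scaling, filters, wider fits, a surrogate variable (sva 3.50.0) and leaving out each library were alternatives. The scripts were tested on simulated data. Intervals and floors (3 counts) cover counting error only. Genes of the lists were named by the largest 2 called changes in each direction from 2 h to 120 h under label WT, and the 3 genes most like a member were taken from genes with a mean of at least 5 CPM. Some genes these rules name are not reported here. Members, lists and tests were chosen with earlier results of these data known.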

Additional observations from a re-analysis of the deposited data

Results flagged for a closer look

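Single libraries stood far from the other 3 of their group by Dixon's test in 26 of 326 groups tested, where chance gives about 1 in 20. The mismatched libraries, whose profiles are those of other hours, gave 7 of them. Pkm ΔDRE vehicle replicate 4 at 4 h had 30.7 CPM of Krt7, 2210 of Vim, 30.7 of Acta2 and 136.5 of Cdh2. Pkm ΔDRE vehicle replicate 4 at 96 h had 8559.9 CPM of Krt18, 7885 of Actb and 435 of Cdh1.

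Among libraries labelled WT, TCDD replicate 3 at 120 h stood apart in 3 genes, with 1520.1 CPM of Krt8, 1379.5 of Vim and 134.3 of Cdh1. TCDD replicate 2 at 12 h had 14006 CPM of Krt8 and 584 of Tubb6. For Krt8, vehicle replicate 4 at 72 h had 6009 CPM, TCDD replicate 4 at 2 h 10269 and TCDD replicate 3 at 72 h 2715. For Krt18, vehicle replicate 2 at 120 h had 3087 CPM and TCDD replicate 3 at 8 h 3615. For Krt23, TCDD replicate 3 at 2 h had 7.75 CPM and TCDD replicate 1 at 8 h 2.06. Vim was at 134.7 CPM in TCDD replicate 4 at 8 h, Acta2 at 54.1 in vehicle replicate 4 at 120 h and at 16.6 in TCDD replicate 1 at 96 h, and Tubb6 at 684 in vehicle replicate 3 at 48 h. Among libraries labelled Pkm ΔDRE, vehicle replicate 4 at 48 h had 2.696 CPM of Krt23, vehicle replicate 4 at 24 h 12.5 of Acta2 and TCDD replicate 3 at 72 h 148 of Cdh2.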

How the results depend on the processing

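No estimate of a called member changed sign under the alternatives run. The TCDD calls under label WT, 12 over 9 hours, became 4 when the label's 72 libraries were fitted together and 0 with 1 surrogate variable added, and ranged from 9 to 13 when 1 library was left out. A covariate for pairs counted to no gene left 8, and one for unmapped pairs (chosen after seeing the data) 10. Under label Pkm ΔDRE the 1 call became 5 in the joint fit, 5 with the surrogate variable, 4 in DESeq2, 3 without a filter on low counts and 2 without the mismatched libraries or with the covariate for unmapped pairs (both chosen after seeing the data), and ranged from 0 to 4 when 1 library was left out. The joint fit's added calls are at 4 h and 96 h, the hours of those libraries. The changes from 2 h to 120 h were steadier, with 9 to 9 members called under label WT and 9 to 10 under label Pkm ΔDRE when any 1 of the label's 36 vehicle libraries was left out, of which those of 2 h and 120 h were planned and the others added after seeing the data. Calls over the 4 steps of hours ranged from 13 to 17 under label WT in the same fits. Under label Pkm ΔDRE the 2 step calls became 4 in DESeq2, 0 without a filter and 8 without the mismatched libraries, with 0 to 5 in the same fits, 5 being the count without the mismatched library of 4 h. The 3 label differences became 6 in DESeq2, with a range of 0 to 6, and the 0 interaction calls became 2 in 1 fit of all libraries, both at 4 h, with 0 to 0 at 8 h and 96 h, the hours where each library was left out. Other causes of these shifts were not tested. No paired analysis was possible because the labels carry no replicate numbers, animals or batches, and library order alone was not used to pair samples. In libraries labelled WT at 2 h and 4 h, replicates 1 and 2 had 12.2% to 14.5% of pairs unmapped. Replicates 3 and 4 there had 7.1% to 10.4%, and the split was seen with both treatments. The tests did not block for it.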
